A study of Mus musculus with 9 samples.

Results

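Gstz1 and the other genes of liver tyrosine catabolism, Fah, Hpd, Hgd and Tat, were taken by gene symbol, as the enzymes of 1 pathway. Every probe set annotated to 1 of these symbols was taken, which gave 6 probe sets for the 5 genes out of 18193 genes with a probe set of their own and 45037 probe sets that are not the manufacturer's controls. Hgd had 2 probe sets and the others had 1 each. All 6 passed the filter on dim signals that 24531 probe sets passed. The livers came from 9 female MRL +/+ mice, an inbred strain prone to autoimmune disease, which were bought at 4 weeks of age and killed at 11 weeks. The DCAC group (3 mice) received dichloroacetyl chloride and the DCAA group (3 mice) received dichloroacetic anhydride, each at 0.2 mmol/kg by intraperitoneal injection in 100 µl of corn oil, 2 times a week for 6 weeks. The control group (3 mice) received corn oil alone, although the sample labels call it untreated. Livers were taken 24 h after the last injection, and each liver was hybridised to its own Affymetrix array. Control 2 is given apart from the other 8 arrays for the reasons stated below, so that most comparisons rest on 3 DCAC, 3 DCAA and 2 control livers. Whole liver was measured, so fewer cells of a type and less RNA per cell cannot be told apart.

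Tyrosine is broken down mainly in hepatocytes. Tyrosine aminotransferase (Tat), an enzyme whose gene is known to respond to glucocorticoids, removes the amino group. 4-hydroxyphenylpyruvate dioxygenase (Hpd) then makes homogentisate, which homogentisate 1,2-dioxygenase (Hgd) opens to maleylacetoacetate. Maleylacetoacetate isomerase, the product of Gstz1, turns it into fumarylacetoacetate, and fumarylacetoacetate hydrolase (Fah) splits that into fumarate and acetoacetate. The Gstz1 protein is also the enzyme that converts dichloroacetate, the acid that both test compounds give on contact with water, to glyoxylate. Dichloroacetate is known to inactivate the Gstz1 protein in rodents and humans, and protein was not measured here.

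The values are signals on a linear scale, which the authors had scaled to a common trimmed mean of 500 on each array. Array medians ran from 157 to 214. Hepatocyte genes were bright on 8 arrays, where the summed signal of 11 hepatocyte markers was 422314 to 561647 in DCAC livers, 539002 to 589700 in DCAA livers and 435644 to 439445 in controls 1 and 3. On control 2 that sum was 26322, while 11 kidney markers summed to 134409, against 1595 to 2798 on the other 8 arrays. Control 2 therefore goes against its label as liver. A second feature touched the comparisons. The array's pyruvate carboxylase controls give a 3'/5' signal ratio that grows as RNA breaks or labelling stops short. It was 2.85, 3.99 and 12.8 in DCAC livers 1, 2 and 3, 6.43, 8.38 and 10.9 in DCAA livers 1, 2 and 3, and 3.93 and 3.32 in controls 1 and 3. High ratios, set apart from low ones at the largest gap between the log2 values, thus held all 3 DCAA livers and DCAC 3, and low ratios held DCAC 1, DCAC 2 and both controls. DCAA 3 also stood apart as an array, with a median Spearman correlation of 0.861 with the other arrays, against 0.898 to 0.905 for the other 7, the highest array median (214) and the highest actin 3'/5' ratio (2.59).

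The data gave no called difference for any of the 5 genes. With DCAC, Fah averaged 1.22 times and Hgd 1.21 times the control level, and with DCAA, Hpd averaged 1.36 times and Fah 1.31 times that level. Gstz1 was the gene nearest to the controls with DCAC and the only one of the 5 that averaged lower than the controls with DCAA. In limma's fit over all kept probe sets, with Benjamini-Hochberg adjustment, 0 of 5 genes passed an adjusted p of 0.05 for DCAC against control, where 0.0326% of all probe sets passed, and 0 of 5 for DCAA against control, where 0.0815% passed. At an unadjusted p under 0.05 limma counted 0 of the 5 genes for DCAC, against 5.02% of all probe sets, and 2 of the 5 for DCAA, against 12.6%. Over the 5 genes the median log2 difference was 0.21 for DCAC and 0.33 for DCAA, beside medians of -0.03 and -0.01 over all probe sets. After quantile normalization the 2 medians of the 5 genes were -0.02 and 0.06, and without control 1 that for DCAA was 0.18. Both comparisons use the same controls.

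**Figure D1:**
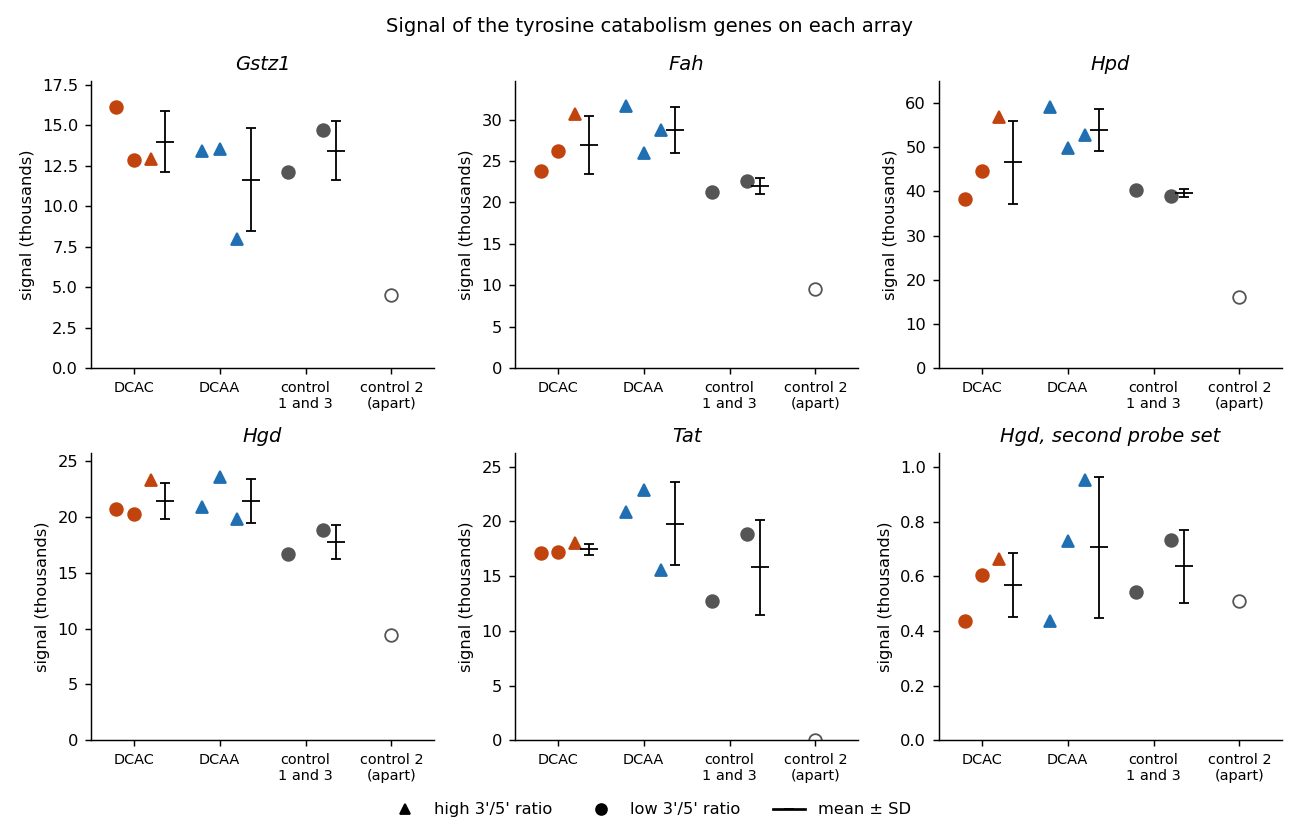
Signal on a linear axis for the 5 genes and the second Hgd probe set, 1 point per array, with the mean and SD of DCAC (n = 3), DCAA (n = 3) and controls 1 and 3 (n = 2) beside the points and control 2 drawn apart; triangles mark a high and circles a low 3'/5' ratio. Hpd is highest on the 4 arrays with a high ratio (49702 to 59109), Gstz1 has its lowest value of the 8 arrays on DCAA 3 (7991), and control 2 is below every other array for each gene's main probe set.

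The Gstz1 promoter windows are shown first because this gene links the compounds to the pathway, and the Tat window because it holds more copies of the CCAAT box than any other window of these genes. RefSeq windows on build GRCm38.p6, running from 250 bases before to 50 bases after a transcript start, were found for all 5 genes, with 2 windows for Gstz1. Capitals mark CCAAT on either strand, the box bound by the factor NF-Y. The first Gstz1 window is chr12:87146915-87147214, the second is chr12:87157353-87157652 and the Tat window is chr8:109990186-109990485, all on the plus strand.
Gstz1 window 1: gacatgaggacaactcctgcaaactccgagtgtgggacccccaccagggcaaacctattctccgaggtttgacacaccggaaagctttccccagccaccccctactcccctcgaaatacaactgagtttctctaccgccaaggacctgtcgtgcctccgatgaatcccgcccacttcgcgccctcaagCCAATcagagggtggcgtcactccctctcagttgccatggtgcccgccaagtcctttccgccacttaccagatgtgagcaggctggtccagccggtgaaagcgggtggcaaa
Gstz1 window 2: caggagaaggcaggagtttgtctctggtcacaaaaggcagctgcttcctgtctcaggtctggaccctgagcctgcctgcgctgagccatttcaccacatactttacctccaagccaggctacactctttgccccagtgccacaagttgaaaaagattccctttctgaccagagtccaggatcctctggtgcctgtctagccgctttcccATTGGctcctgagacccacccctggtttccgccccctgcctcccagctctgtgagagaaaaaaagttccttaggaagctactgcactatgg
Tat window 1: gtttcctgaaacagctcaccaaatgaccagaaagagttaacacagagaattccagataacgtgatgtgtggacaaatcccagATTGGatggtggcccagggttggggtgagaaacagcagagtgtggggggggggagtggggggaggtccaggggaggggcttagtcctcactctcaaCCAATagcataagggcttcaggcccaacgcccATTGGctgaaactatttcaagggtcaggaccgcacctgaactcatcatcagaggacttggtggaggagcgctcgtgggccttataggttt
CCAAT occurred 1 time in each Gstz1 window, 2 times in Hgd, 3 times in Tat and 0 times in Fah and Hpd, and 37.4% of 32817 such windows in the table hold it. TATAAA occurred 1 time, in Hgd, and 13.6% of windows hold it. The core of the antioxidant response element, TGACNNNGC, is held by 12.4% of windows and had no match in these 6 on either strand. No matches of different motifs overlapped. A match is only a run of letters in the window.

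Gstz1 signal was 16147, 12837 and 12944 in DCAC livers 1, 2 and 3, 13421, 13528 and 7991 in DCAA livers 1, 2 and 3, and 12138 and 14712 in controls 1 and 3. DCAC 1 was the highest of the 8 and DCAA 3 the lowest by a wide margin, and both treated groups overlapped the controls. The means were 13976 ± 1881 with DCAC and 11646 ± 3166 with DCAA (SD, n = 3 each), against 13425 ± 1820 in controls (SD, n = 2). DCAC minus control was 0.06 on the log2 scale (95% interval -0.42 to 0.54, limma adjusted p 0.992), a ratio of 1.04 with bounds of 0.746 and 1.45. DCAA minus control was -0.24 (95% interval -0.72 to 0.24, limma adjusted p 0.689), a ratio of 0.847 with bounds of 0.608 and 1.18. Without DCAA 3 the DCAA difference was 0.01, so its sign rests on that liver, whose array stood apart across all probe sets. Without control 1 the DCAC difference was -0.08. The intervals leave room for a DCAA level as low as 0.608 times the control level.

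Tat signal was 17081, 17187 and 18007 in DCAC livers 1, 2 and 3, 20884, 22900 and 15568 in DCAA livers 1, 2 and 3, and 12731 and 18854 in controls 1 and 3. The DCAC livers were close together, with a coefficient of variation of 2.91%, while the 2 controls were far apart and spanned all 3 DCAC values. DCAC minus control was 0.17 on the log2 scale (95% interval -0.25 to 0.59, limma adjusted p 0.986). DCAA minus control was 0.33 (95% interval -0.09 to 0.76, limma adjusted p 0.509), a ratio of 1.26. Without control 1 these values were -0.11 and 0.05, and without control 3 they were 0.45 and 0.62, so for Tat the choice of control liver decides the sign with DCAC.

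Hpd, the dioxygenase that the drug nitisinone blocks, had signals of 38196, 44598 and 56826 in DCAC livers 1, 2 and 3, 59109, 49702 and 52809 in DCAA livers 1, 2 and 3, and 40293 and 38938 in controls 1 and 3. All 3 DCAA livers were above both controls, and DCAC 3 sat among the DCAA livers while DCAC 1 was the lowest of the 8. DCAA minus control was 0.44 on the log2 scale (95% interval 0.07 to 0.81, limma p 0.0249, adjusted p 0.328), and DCAC minus control was 0.21 (95% interval -0.16 to 0.59, limma adjusted p 0.980). The 4 livers with a high 3'/5' ratio had Hpd signals of 49702 to 59109 and the 4 with a low ratio had 38196 to 44598, with no overlap. With the 2 ratio classes as a block the DCAA difference was -0.02, and with quantile normalization it was 0.01. No DCAA liver shares a ratio class with a control. The block therefore rests on DCAC 3 against DCAC 1 and DCAC 2 alone, and cannot separate ratio from compound. The part of the ratio in this difference was not tested beyond these fits.

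Hgd, whose loss causes alkaptonuria in humans, had a main probe set with signals of 20686, 20219 and 23233 in DCAC livers 1, 2 and 3, 20898, 23518 and 19754 in DCAA livers 1, 2 and 3, and 16650 and 18802 in controls 1 and 3. All 6 treated livers were above both controls. The difference was 0.27 on the log2 scale with DCAC (95% interval -0.04 to 0.58, limma adjusted p 0.967) and also 0.27 with DCAA (95% interval -0.04 to 0.58, limma adjusted p 0.460), a ratio of 1.21 in each. With quantile normalization these were 0.10 and 0.06. The second Hgd probe set was much dimmer, with 436, 607 and 664 in DCAC livers, 436, 732 and 952 in DCAA livers and 542 and 732 in controls. It did not share the pattern of the main one: its DCAC difference was -0.17 and its DCAA difference 0.09 on the log2 scale (limma adjusted p 0.991 and 0.928), and its groups overlapped.

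Fah, whose loss causes tyrosinemia in humans and mice, had signals of 23775, 26199 and 30694 in DCAC livers 1, 2 and 3, 31580, 26021 and 28688 in DCAA livers 1, 2 and 3, and 21293 and 22626 in controls 1 and 3. All 6 treated livers were above both controls, the lowest of them, DCAC 1, by a small margin. The means were 26889 ± 3511 with DCAC and 28763 ± 2780 with DCAA (SD, n = 3 each), against 21960 ± 943 in controls (SD, n = 2). DCAC minus control was 0.28 on the log2 scale (95% interval -0.05 to 0.62, limma adjusted p 0.967). DCAA minus control was 0.39 (95% interval 0.05 to 0.72, limma p 0.0260, adjusted p 0.332). In the 4 livers with a high 3'/5' ratio Fah was 26021 to 31580, against 21293 to 26199 in the 4 with a low ratio. With the ratio classes as a block the DCAA difference was 0.09, and with quantile normalization it was also 0.09. As for Hpd, the block rests on DCAC 3 against DCAC 1 and DCAC 2 alone.

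Counted over the 5 genes, the DCAC livers were all above both controls for 2 genes, Fah and Hgd, while 11.2% of all probe sets had such higher groups. The DCAA livers were all above both controls for 3 genes, Fah, Hpd and Hgd, against 16.2% of all probe sets. With only 2 controls such separation is frequent across the array, and with 5 genes a count of 2 or 3 is a small number. Taking the 6 treated livers as 1 group, Fah differed by 0.34 on the log2 scale (95% interval 0.04 to 0.63, limma adjusted p 0.634) and Hgd by 0.27 (limma adjusted p 0.691). Hpd differed by 0.33 (limma adjusted p 0.717), Tat by 0.25 (limma adjusted p 0.788) and Gstz1 by -0.09 (limma adjusted p 0.946). Of the 5 genes 0 passed limma's adjusted threshold, where 0.0734% of all probe sets passed, and 2, Fah and Hgd, had an unadjusted p under 0.05, against 7.22%. The same 2 genes were higher in all 6 treated livers than in both controls, against 5.18%.

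**Figure D2:**
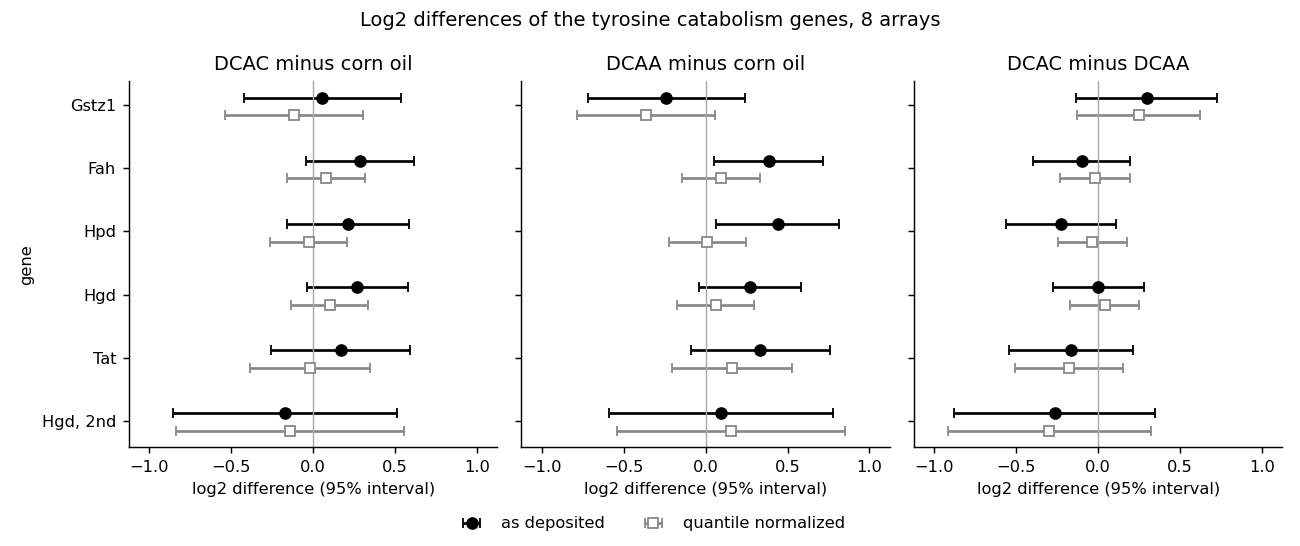
Log2 difference with its 95% interval from limma for each gene and the second Hgd probe set, in panels for DCAC minus control (corn oil), DCAA minus control and DCAC minus DCAA, from the signals as deposited (filled circles) and after quantile normalization (open squares). For DCAA minus control the deposited signals of Fah and Hpd give intervals above 0, which did not pass the adjusted threshold, while after quantile normalization both cross 0, and every interval of Gstz1 crosses 0.

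The acyl chloride and the anhydride carry the same dichloroacetyl group, on a chlorine in DCAC and on a second acid residue in DCAA. They were given at the same molar dose of compound and sampled at the same time. Because of that second residue the dose was not equal in dichloroacetyl groups, and compound and amount of these groups cannot be told apart. DCAC and DCAA made 1 pair to compare. Gstz1 stood 0.30 higher on the log2 scale with DCAC than with DCAA (95% interval -0.13 to 0.72, limma adjusted p 0.627), and 0.04 higher without DCAA 3. Hpd stood at -0.23 (95% interval -0.56 to 0.11, limma adjusted p 0.634), Tat at -0.16 (95% interval -0.54 to 0.21) and Fah at -0.10 (95% interval -0.40 to 0.20). For Hgd the log2 difference was 0.00 (95% interval -0.28 to 0.28), with ratio bounds of 0.825 and 1.21. None of the 5 genes passed limma's test of the pair, where 0.00408% of all probe sets passed, and 0 of 5 had an unadjusted p under 0.05, against 9.28%. In 0 of 5 genes were the groups free of overlap, while 6.32% of all probe sets were higher and 7.63% lower in every DCAC liver. The intervals allow ratios of DCAC over DCAA from 0.678 for Hpd up to 1.65 for Gstz1, so a lack of calls does not show that the compounds act alike on these genes.

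Across the 8 arrays Gstz1 spanned 1.01 on the log2 scale, Tat 0.85, Hpd 0.63, Fah 0.57 and Hgd 0.50. Hpd and Fah, which act at different steps of the pathway, shared their 3 lowest arrays, DCAC 1 and both controls, and were highest on DCAA 1 and next on DCAC 3. Gstz1 was highest on DCAC 1 and lowest on DCAA 3. Groups and 3'/5' ratio classes divide the 8 arrays into clusters of fewer than 6, so no correlation between the genes is given.

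A like order of livers appeared in genes outside the pathway. The median log2 signal of the 11 hepatocyte markers was 15.39, 15.69 and 15.82 in DCAC livers 1, 2 and 3, 15.89, 15.79 and 15.82 in DCAA livers 1, 2 and 3, and 15.42 and 15.44 in controls 1 and 3. DCAC 1 and the 2 controls were thus the 3 lowest for the marker median, and they were also the 3 lowest for Hpd and for Fah. Between groups the hepatocyte list had a median difference of 0.18 for DCAC and 0.36 for DCAA on the log2 scale, with 0 of 11 genes called by limma in either. Under an unadjusted limma p of 0.05 were 0 and 6 of them, against 5.02% and 12.6% of all probe sets. The 5 pathway genes had medians of 0.21 and 0.33, and the part of hepatocyte content in their differences was not tested. Markers of other cells were examined beside them, and limma called 0 for either compound and 1 neutrophil marker, Prtn3, a granule protease, as higher in the 6 treated livers as 1 group (log2 difference 2.73, limma adjusted p 0.015). Its 2 control values were far apart, at 222 on control 1 and 45 on control 3. The value on control 3 was under that array's floor of 54.3 and was raised to it. The 7 tested neutrophil markers had medians of 0.78 and 1.03 for DCAC and DCAA. The full list of 8, with Camp, which failed the filter, summed to 2651 to 2892 in DCAC livers, 1822 to 4283 in DCAA livers and 1294 to 1721 in the controls. The 4 tested T and NK cell markers had medians of -1.44 and -1.03, and the list summed to 1131 to 1167 in DCAC livers, 1026 to 1215 in DCAA livers and 1724 to 2738 in the controls. Kupffer cell and macrophage markers had medians of -0.44 and -0.48, but their sums of 8153 to 12359 in DCAC livers and 10598 to 11455 in DCAA livers lay between those of the 2 controls, 7524 and 25768. Their part in the values of the tyrosine genes was not tested either.

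**Figure D3:**
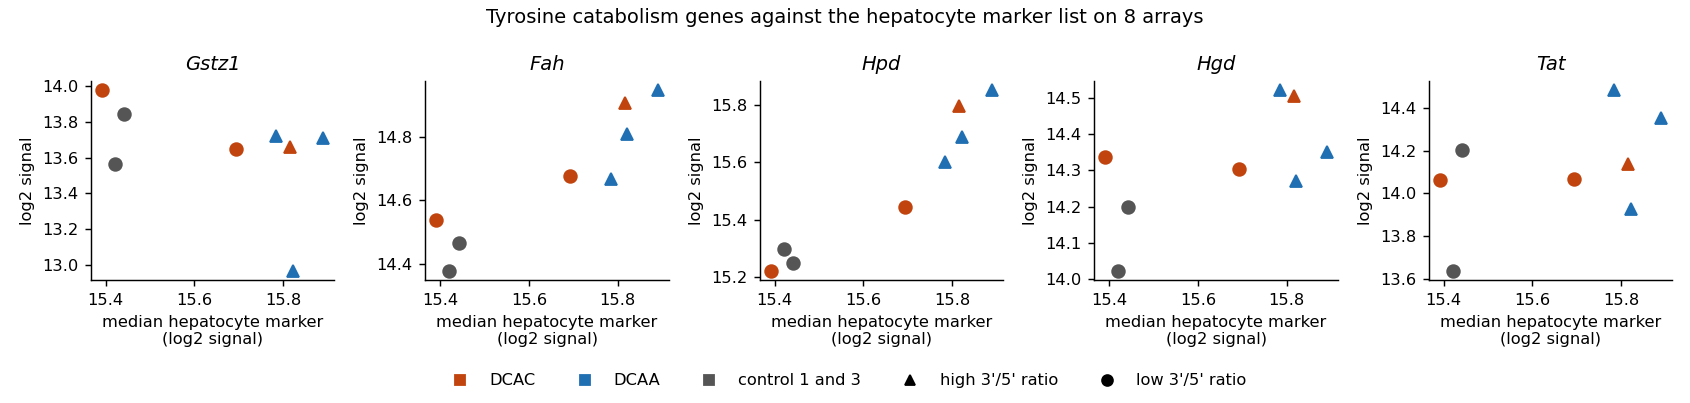
Log2 signal of each gene against the median log2 signal of 11 hepatocyte markers, 1 point per array for the 8 arrays without control 2, marked by group and by 3'/5' ratio class. Hpd and Fah are low on DCAC 1 and the controls, where the marker median is 15.39 to 15.44, and high on the others, while the lowest point of Gstz1 is DCAA 3.

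Genes whose signals followed each member most closely over the 8 arrays, among 11633 genes, are given as a description with no p. Closest to Gstz1 by Pearson's r were Sox15 (0.97), Nab1 (0.96), Wbp11 (0.96), Ndufb5 (0.96) and Tex2 (0.96). Closest to Hpd were Apoc1 (0.996), an apolipoprotein, Hacd3 (0.99) and the translation factor Eef1a1 (0.98). For Fah they were Hadh (0.98), an enzyme of fatty acid oxidation, Ybx1 (0.98) and Azgp1 (0.98). Hgd was closest to Afg3l1, Lztfl1 and Csrp2 (0.96 each), and Tat to Nfe2l2 (0.94), Cyb5rl (0.94) and Heatr5b (0.93). All of these values share the same 8 arrays, with their differences in group and 3'/5' ratio. Each is the highest of many comparisons. The lowest log2 values of Sox15 and Cyb5rl, 6.07 and 5.79, equal the floors of DCAA 3 (signal 67.3) and control 1 (signal 55.4). Dim signals were raised to these floors, so these low points are replaced values and not measured ones.

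The steps around the pathway were followed in 4 gene lists. Phenylalanine hydroxylation, which supplies tyrosine, and its tetrahydrobiopterin cofactor had 7 measured genes of 8. In this list 0 genes passed limma's adjusted threshold with either compound, the median log2 difference was 0.31 with DCAC and 0.27 with DCAA, and 7 and 6 genes lay above 0. Pts, which makes a cofactor precursor, averaged 919 in treated livers and 654 in controls, a log2 difference of 0.50 (95% interval 0.09 to 0.91, limma adjusted p 0.590), which was 0.27 without control 3 and 0.73 without control 1. Qdpr, which recycles the cofactor, averaged 30360 in treated livers and 25800 in controls, a log2 difference of 0.23 (limma adjusted p 0.717). Gchfr, the regulator of cofactor synthesis, stood at 0.39 (limma adjusted p 0.646) and Pcbd2, a cofactor-regenerating dehydratase, at 0.34 (limma adjusted p 0.638).

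Genes that handle fumarate, acetoacetate and aspartate, the products and partners of the pathway, had 9 tested members of 12, of which 0 were called, with median log2 differences of -0.01 for DCAC and -0.15 for DCAA. Acat1, the mitochondrial thiolase that splits acetoacetyl-CoA, averaged 10810 in treated livers and 14070 in controls, a log2 difference of -0.39 (95% interval -0.71 to -0.07, limma adjusted p 0.606). Aacs, which activates acetoacetate in the cytosol, stood at -0.68 (limma adjusted p 0.659), or -0.41 without control 1 and -0.96 without control 3, and Fahd2a, a gene of the Fah-related family, at -0.39 (limma adjusted p 0.739). The fumarase gene Fh1 stood at 0.24, and the aspartate aminotransferases Got1 and Got2 at -0.27 and 0.07. Their limma adjusted p values were 0.756, 0.868 and 0.933.

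Other amino acid pathways of the hepatocyte gave values close to those of the 5 tyrosine genes or nearer to 0. Tryptophan catabolism had 10 tested genes of 11 with median log2 differences of 0.13 for DCAC and 0.18 for DCAA and 0 called. Its first enzyme, Tdo2, averaged 22200 in treated livers and 17790 in controls, a log2 difference of 0.33 (limma adjusted p 0.648), which was 0.11 without control 1 and 0.56 without control 3. Kmo and Aadat, later enzymes of the kynurenine route, stood at 0.23 and 0.27 (limma adjusted p 0.750 and 0.756). The list of histidine, serine and threonine catabolism had 5 tested genes of 8, medians of 0.06 and 0.07 for DCAC and DCAA, and 0 called. The tested genes were Hal, Uroc1, Amdhd1, Ftcd and Gldc. Sds, Sdsl and Amt had no tested probe set, so these medians do not cover serine and threonine breakdown. Hal, which starts histidine breakdown, stood at 0.17 and Gldc, of the glycine cleavage system, at -0.17 (limma adjusted p 0.816 and 0.861). Ftcd, which takes the last histidine-derived group to folate, stood at 0.12 (limma adjusted p 0.880).

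**Figure D4:**
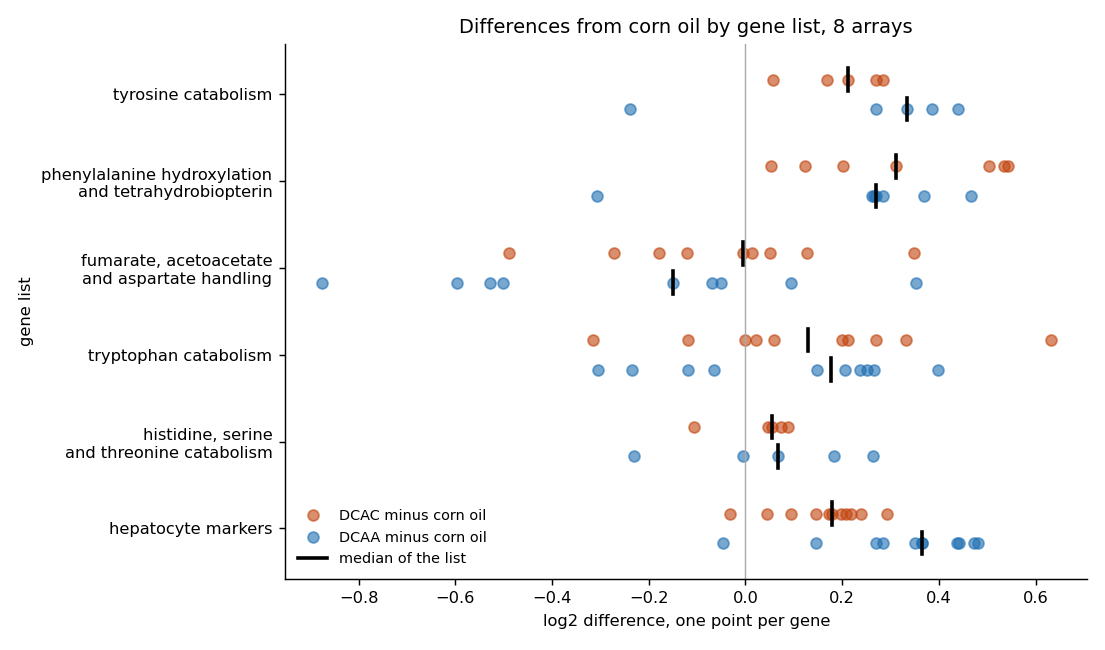
Log2 difference from control of every tested gene in each list for DCAC and DCAA, with a mark at the median of the list. The medians of the tyrosine genes are 0.21 for DCAC and 0.33 for DCAA, and those of the hepatocyte markers 0.18 and 0.36.

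On control 2, a single array with no test, the main probe sets of all 5 genes were below each of the other 8 arrays, as were 22.8% of all probe sets. The second Hgd probe set was not: it was 510 on control 2, above DCAC 1 and DCAA 1 (436 each). Its log2 difference from the mean of controls 1 and 3 was -0.31. Gstz1 was 4531, against a range of 7991 to 16147 on the other arrays, and Fah was 9629, Hpd 16079 and Hgd 9381. Tat was at 42.5, under the array's floor of 59.8, while the other arrays had 12731 to 22900. Set against the mean of controls 1 and 3, Gstz1 was 2.95-fold lower, Hpd 2.46-fold, Fah 2.28-fold and Hgd 1.89-fold, and Tat was at least 259-fold lower, with its signal held at the floor. A difference of at least 2-fold lower was thus met by 4 of the 5 genes, and by 12.3% of all probe sets.

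The 5 genes were unequally low on an array that carries kidney genes. Kap, an androgen-regulated protein of the kidney tubule, was 27176 on control 2, against 263 to 518 on the others. Slc34a1, the phosphate transporter of the proximal tubule, was 29632, against 134 to 236. All 11 kidney markers were at least 2-fold higher than the mean of controls 1 and 3, and 10 of 11 hepatocyte markers were at least 2-fold lower, with a median log2 difference of -6.44. Gstz1, Fah, Hpd and Hgd kept differences of -1.56, -1.19, -1.30 and -0.92 on that scale, whereas Tat was under the floor, as did the hepatocyte marker Ttr, the transthyretin gene, at 22 against 42540 to 64893.

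**Figure D5:**
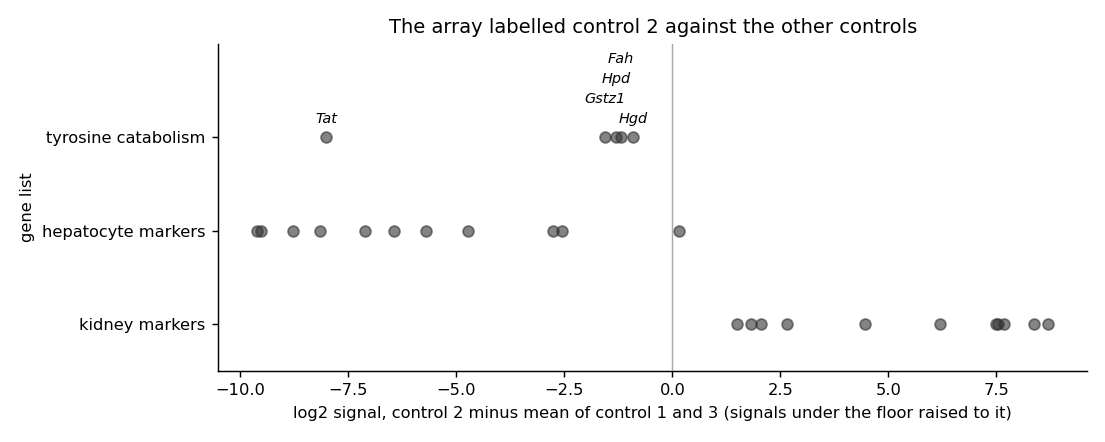
Log2 signal of control 2 minus the mean of controls 1 and 3 for the 5 tyrosine genes and for the hepatocyte and kidney markers, 1 point per gene. Tat, held at the floor, lies at -8.02 among the hepatocyte markers, the other 4 genes lie between -1.56 and -0.92, and all 11 kidney markers lie above 1.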

How the data were processed

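Total RNA of 9 samples labelled as liver was hybridised to Affymetrix mouse arrays, 1 array per mouse. The authors deposited 1 signal intensity for each probe set, linear and not log-transformed, from the software GCOS (per the submitters' processing notes), with each array at a trimmed mean of 500. Detection calls were not used. Signals below the 25th percentile of an array were set to it before taking log2. A probe set was kept where 3 or more arrays had it above their median, which left 24531 with 8 arrays and 25146 with 9. A gene was represented by its kept probe set with the highest mean.

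The main fit was limma 3.58.1 (lmFit and eBayes with an intensity trend) in R 4.3.3 on 8 arrays without control 2, with 3 groups in 1 model, and with the 6 treated livers as 1 group in a second fit. P values were adjusted by Benjamini-Hochberg over all kept probe sets, with a threshold of 0.05. The 36 pairs of arrays held 0 identical pairs. The labels tie each array to 1 mouse, and the number of arrays limits the precision.

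The members and lists were chosen with earlier results of these data known. Genes named from the lists were fixed enzymes whatever their values (4 had a probe set), genes passing the threshold and up to 3 others per list by smallest unadjusted p for treated minus control. Replicate numbers in the labels are shared between groups, but deviations of same-numbered arrays correlated at -0.0408 to 0.0275, so the mice were not treated as paired. Alternatives were quantile normalization, a common median, an offset of 32, other filters, no trend, blocks for the replicate number and the 3'/5' class, all 9 arrays and leaving out each liver. A fit with the log2 3'/5' ratio as a covariate was added after seeing the data. Gene names come from the platform annotation, and promoter sequences from RefSeq's GRCm38.p6.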

Additional observations from a re-analysis of the deposited data

Results flagged for a closer look

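Gstz1 on DCAA 3 stood apart from the other 5 treated livers: on the log2 scale its gap to the next liver was 0.674 of the whole range of the 6, above Dixon's critical value of 0.625. On the linear scale the share was 0.594, under that value. The array of DCAA 3 also had the lowest median Spearman correlation with the others among the 8 arrays (0.861). Chance gives such a gap in about 1 of 20 single groups of like livers. The gap was examined for all 6 probe sets, so the rate of at least 1 flag is higher. These 6 livers also mix both compounds and both 3'/5' ratio classes.

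On control 2, 11 of 11 kidney markers lay above all 8 other arrays, and this array entered no test.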

How the results depend on the processing

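With 2 controls and 3 livers per compound, the median 95% interval over all probe sets reached 1.56-fold either way. This held for both DCAC and DCAA against control. These intervals are not adjusted for the number of probe sets, so for many genes a call after adjustment needed a larger difference than this. With DCAC, Gstm3 at a ratio of 0.532 was not called (limma adjusted p 0.392), while Mt2 at a ratio of 4.56 was (limma adjusted p 0.0159). Of 450 values of the tyrosine genes under the alternatives, 414 kept their direction, 36 turned and 0 passed the threshold. All differences below are log2.

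With the 3'/5' class as a block, DCAA minus control turned for Hpd (-0.021) and the second Hgd probe set (-0.274), DCAC minus DCAA turned for Fah (0.098) and Hpd (0.081), and treated minus control turned for Gstz1 (0.108), Got1 (0.041), Got2 (-0.040), Hal (-0.025), Gldc (0.056) and Ftcd (-0.029). With the ratio as a covariate, DCAA minus control turned for Gstz1 (0.009) and the second Hgd probe set (-0.309), and treated minus control for Gstz1 (0.127), Got1 (0.051) and Gldc (0.062). With all 9 arrays Gstz1 turned for DCAA (0.281) and for treated (0.429), as did treated minus control for the second Hgd probe set (0.063), Got1 (0.272), Aadat (-0.693), Gldc (0.391), Dusp1 (0.291) and Gstm3 (0.009). A common median moved the median of all probe sets to -0.123 for DCAA minus control and 0.172 for DCAC minus DCAA, and turned the second Hgd probe set for DCAA (-0.022) and Fah (0.086) and Tat (0.022) between compounds. Quantile normalization turned Gstz1 (-0.118), Hpd (-0.026) and Tat (-0.018) for DCAC, and Hpd (-0.008), the second Hgd probe set (0.006), Qdpr (-0.022), Got2 (-0.105), Ftcd (-0.007) and Dusp1 (0.003) for treated minus control. In the fit of 3 groups only DCAC held both ratio classes, so the class block there rests on DCAC 3 against DCAC 1 and DCAC 2. The cause of these turns was not tested.

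limma called 8 probe sets for DCAC, 20 for DCAA, 1 between the compounds and 18 for treated. A common median gave 9 for DCAA and 0 between compounds (2961 at an unadjusted p under 0.05). No filter gave 1, 4 and 0 (5171 unadjusted). No trend gave 0, 0, 0 and 2 (1131, 2713 and 2181 unadjusted for the first 3). A fit of only the 2 compounds gave 2. The ratio class block gave 2, 0 (1491 unadjusted), 3 and 5, and the ratio covariate 4, 4, 2 and 6. All 9 arrays gave 0 in each (1336, 3025, 1446 and 2584 unadjusted). With the replicate number as a block the calls were 7, 17, 1 and 7, Gstz1 stood at 0.021 for DCAC and -0.275 for DCAA, and Hpd at 0.479 for DCAA. The labels do not say whether these numbers pair mice.

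Leaving out 1 liver at a time gave 2 to 14 calls for DCAC, 3 to 87 for DCAA, 0 to 2 between compounds and 4 to 27 for treated, where a lone control is assumed to vary like the other groups. Ranges that crossed 0 were Gstz1 for DCAC (-0.082 to 0.195), DCAA (-0.378 to 0.012) and treated (-0.230 to 0.047), Hgd between compounds (-0.061 to 0.071), the second Hgd probe set for DCAC (-0.387 to 0.045), DCAA (-0.158 to 0.405) and treated (-0.255 to 0.177), Tat for DCAC (-0.114 to 0.452) and treated (-0.032 to 0.535), Dusp1 (-0.194 to 0.190) and Pck1 (-0.104 to 0.850) for treated. Without control 1 treated minus control was 0.074 for Aadat and 0.017 for Ftcd, without DCAA 3 it was -0.075 for Got1 and -0.097 for Gldc, and without DCAC 3 it was 0.040 for Got2.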

Other observations

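A list of antioxidant and glutathione genes, several of which are known to be raised in Gstz1-deficient mice, had 8 tested genes of 9. Of these, 0 were called by limma in DCAC or DCAA against control. An unadjusted limma p under 0.05 was met by 2 and 4 of them, against 5.02% and 12.6% of all probe sets. The median log2 differences were -0.19 for DCAC and -0.04 for DCAA. Gstm3, a glutathione transferase, averaged 2414 in treated livers and 4792 in controls, a log2 difference of -1.01 (95% interval -1.42 to -0.60, limma adjusted p 0.103). It was lower in 6 of 6 treated livers than in both controls, and the share of all probe sets lower in this way was not counted. Gclm, which supplies the modifier subunit of glutathione synthesis, averaged 5037 in treated livers and 3824 in controls, a log2 difference of 0.40 (limma adjusted p 0.559). Gsta2, another transferase, stood at -1.14 (limma adjusted p 0.606), or -0.75 without control 3.

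Tat belongs to the genes known to respond to glucocorticoids, and 8 others of that kind were measured. Their median log2 difference was 0.04 for DCAC, with 4 genes above and 4 below 0. For DCAA it was 0.71, with 6 above and 2 below. Without control 1 these medians were -0.075 and 0.257. Mt2, a metallothionein, rose in all treated livers, with a mean of 29940 against 6698 in controls and a log2 difference of 2.17 (95% interval 1.65 to 2.69, limma adjusted p 0.003), higher in 6 of 6 treated livers. That call was lost with no trend (limma adjusted p 0.143), with all 9 arrays (0.224) and without control 1 (0.0551, log2 difference 1.80). Dusp1, a phosphatase of stress signalling, averaged 1588 with DCAC and 4600 with DCAA, and the difference between the compounds was -1.53 on the log2 scale (limma adjusted p 0.0269). That call was lost under 10 of 19 alternatives, among them a common median, no filter, no trend, the 3'/5' class as a block, all 9 arrays and leaving out any 1 DCAC liver, DCAA 1 or DCAA 2, where the difference was -1.75 to -1.34 and limma's adjusted p 0.0555 to 0.851. Sgk1, a kinase, averaged 512 in treated livers and 1893 in controls (log2 difference -1.64, limma adjusted p 0.232), or -0.72 without control 3 and -2.56 without control 1. Zbtb16, a transcription factor, averaged 3205 in treated livers and 1308 in controls (log2 difference 1.10, limma adjusted p 0.620). Pck1, the gluconeogenic carboxykinase, stood at 0.37 (limma adjusted p 0.742). Tat, at 0.25, did not pass.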
